A study of Homo sapiens with 3 samples.

Results

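The genes described here are REG4, PLA2G2A, A1CF, TSPAN8, HNF4G, TFF1 and TFF3, 7 of the 33423 genes with a row in at least 1 of 3 Drop-seq count tables. They were chosen by name as genes of the gastrointestinal lineage, and by their measured rise in enzalutamide-treated cells of this same dataset, so their ratios between libraries are given as a description without a test. The libraries were VCaP parental cells given 0.1% DMSO for 48 h, VCaP cells given 10 µM enzalutamide for 48 h (VCaP–ENZ48) and LNCaP cells given 10 µM enzalutamide for 168 h (LNCaP–ENZ168). VCaP and LNCaP are human prostate cancer cell lines, both labelled as sensitive to enzalutamide, an antiandrogen used in prostate cancer, and each library is 1 culture without a replicate. LNCaP cells without the drug were not part of this comparison, so LNCaP–ENZ168 differs from the VCaP libraries in both line and time of treatment, which cannot be told apart. The name of the group held for 5 of the 7 genes: HNF4G was at almost the same level in both VCaP libraries and TFF3 was lower after enzalutamide.

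Several of these genes belong to the normal programme of the gut lining. Goblet, Paneth and gastric mucous cells secrete REG4, PLA2G2A and trefoil peptides (TFF1, TFF3) onto the mucosal surface, whereas A1CF and HNF4G act in the nucleus of gut epithelial cells, A1CF also in hepatocytes, and TSPAN8 is a membrane protein of epithelial cells. Prostate luminal cells and gut epithelium both arise from endoderm, and parts of the gut programme have been described in treated prostate cancers. REG4 lies on chromosome 1 (chr1:119794017-119811580, GRCh38, minus strand), PLA2G2A on the same chromosome (chr1:19975431-19980416, minus strand), A1CF on chromosome 10 (chr10:50799409-50885675, minus strand) and TSPAN8 on chromosome 12 (chr12:71125085-71441898, minus strand). TFF1 (chr21:42362282-42366535) and TFF3 (chr21:42311667-42315409) are neighbours on the minus strand of chromosome 21, 46873 bp apart. In the annotation A1CF overlaps ASAH2B and TSPAN8 overlaps LGR5, both on the opposite strand, and whether the counting used strand is not given in the sources used here. ASAH2B had 129, 104 and 47 UMIs in VCaP parental, VCaP–ENZ48 and LNCaP–ENZ168, and LGR5 had 3, 1 and 1, so neither had the pattern of its partner.

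The promoters of the 4 genes with a RefSeq entry (GRCh38.p14) are shown because these 4 genes were all higher in VCaP–ENZ48. HNF4G, TFF1 and TFF3 had no entry. Each line gives the 250 bases before the start of the MANE Select transcript, 5′ to 3′ on the strand of the gene, and capitals mark matches, on either strand, to the letter patterns named after them.
REG4, chr1:119811461-119811710, minus strand: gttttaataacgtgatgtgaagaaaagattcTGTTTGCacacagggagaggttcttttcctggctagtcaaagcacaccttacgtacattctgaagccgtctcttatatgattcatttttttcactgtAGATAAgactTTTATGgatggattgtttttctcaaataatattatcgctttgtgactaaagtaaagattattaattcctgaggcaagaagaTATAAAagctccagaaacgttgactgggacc
PLA2G2A, chr1:19979619-19979868, minus strand: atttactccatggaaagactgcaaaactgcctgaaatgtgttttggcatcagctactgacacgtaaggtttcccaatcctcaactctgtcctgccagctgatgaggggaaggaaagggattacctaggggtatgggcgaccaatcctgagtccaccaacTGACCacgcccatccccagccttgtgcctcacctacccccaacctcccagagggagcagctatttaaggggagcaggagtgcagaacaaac
A1CF, chr10:50885628-50885877, minus strand: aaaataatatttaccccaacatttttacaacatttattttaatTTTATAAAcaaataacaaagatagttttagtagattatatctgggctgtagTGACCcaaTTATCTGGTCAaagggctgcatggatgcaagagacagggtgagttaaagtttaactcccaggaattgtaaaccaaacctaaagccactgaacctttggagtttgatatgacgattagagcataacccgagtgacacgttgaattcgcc
TSPAN8, chr12:71158000-71158249, minus strand: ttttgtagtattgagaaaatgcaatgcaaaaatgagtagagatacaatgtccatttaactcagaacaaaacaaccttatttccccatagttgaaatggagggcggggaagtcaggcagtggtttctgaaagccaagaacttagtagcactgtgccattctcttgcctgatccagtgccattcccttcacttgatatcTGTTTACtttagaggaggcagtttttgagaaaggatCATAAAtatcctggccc

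The patterns searched on both strands were TGTTTAC or the variant TGTTTGC for forkhead factors, CAAAGTCC for the HNF4 core, GTTAAT for HNF1, TTTATG for CDX factors, GGTCA for nuclear receptors, AGATAA for GATA factors and TATAAA for the TATA box. The REG4 window held a match to the second forkhead pattern and to the GATA, CDX and TATA patterns, the last of these from 31 to 26 bases before the start. The nuclear receptor pattern was found in PLA2G2A and, 2 times, in A1CF, and in 32.8% of 27305 promoters of the same length. In A1CF the second of these directly followed a GATA match on the opposite strand, and the matches to the TATA pattern, 1 on each strand, shared bases with each other. The CDX pattern was found in REG4 and TSPAN8 and in 9.80% of all promoters, the GATA pattern in REG4 and A1CF and in 9.21%, and the TATA pattern in REG4 and A1CF and in 11.1%. The forkhead patterns were found once each, the second in REG4 (3.11% of all promoters) and the first in TSPAN8 (2.92%). The HNF4 and HNF1 patterns, present in 0.996% and 6.08% of all promoters, were not among the letters of these 4 windows. No pattern was in all 4 windows.

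After filtering, 997 cells of VCaP parental, 947 of VCaP–ENZ48 and 944 of LNCaP–ENZ168 remained, with 19515202, 14301287 and 6313283 unique molecular identifiers (UMIs, each the tag of 1 captured mRNA molecule). No barcode was shared between libraries. All 12 prostate luminal markers examined, among them KRT8, KRT18, FOXA1 and HOXB13, had UMIs in every library, and the VCaP and LNCaP line markers matched the labels. Of 8 defining markers of intestinal epithelium, 4 were at 0 in each library, among them CDX1, MUC2 and FABP1, which had no row and were counted as 0. The summed level of the 8 was 3.18 CPM (counts scaled to a common total of 1000000 UMIs per library) in VCaP parental, 7.34 CPM in VCaP–ENZ48 and 3.17 CPM in LNCaP–ENZ168. That of the 12 luminal markers was 4415, 7381 and 4351 CPM in the same order. Single luminal markers were both higher and lower in VCaP–ENZ48 than in VCaP parental. All intervals below are 95% intervals and cover counting error only. A summed level cannot tell fewer expressing cells from less RNA per cell, and the distribution over cells is therefore given separately.

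REG4, a secreted lectin-like protein of enteroendocrine and goblet cells, had 36 UMIs in VCaP parental (1.84 CPM, interval 1.29 to 2.55), 838 in VCaP–ENZ48 (58.6 CPM, 54.7 to 62.7) and 19 in LNCaP–ENZ168 (3.01 CPM, 1.81 to 4.70). VCaP–ENZ48 stood apart, while the intervals of the other two libraries overlapped. The fold between the VCaP libraries was 31.8 (22.8 to 45.7), the highest log2 ratio of CPM + 1 (4.39) among the 7729 genes that averaged 10 CPM or more over both VCaP libraries. Of these genes 8.19% were at least 2-fold higher and 6.77% at least 2-fold lower in VCaP–ENZ48, and the median log2 ratio was -0.07. REG4 was chosen for its rise and reached this mean only through VCaP–ENZ48, so nothing is read from its rank.

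PLA2G2A, a secreted phospholipase of Paneth cells that attacks bacterial membranes, had 601 UMIs in VCaP parental (30.8 CPM, 28.4 to 33.4), 8288 in VCaP–ENZ48 (579.5 CPM, 567 to 592) and 506 in LNCaP–ENZ168 (80.1 CPM, 73.3 to 87.4). The 3 intervals were separate, with VCaP–ENZ48 highest and VCaP parental lowest. Its fold between the VCaP libraries was 18.8 (17.3 to 20.5), with a log2 ratio of 4.19, the second highest of the 7729. PLA2G2A was also chosen for its rise, so nothing is read from this rank. Of the 506 UMIs in LNCaP–ENZ168, 108 came from 1 cell. The share of all genes with separate intervals between VCaP parental and LNCaP–ENZ168 was not counted, so nothing is read from that separation.

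The trefoil peptides went in opposite directions. TFF1, a product of gastric surface mucous cells, had 152 UMIs in VCaP parental (7.79 CPM, 6.60 to 9.13), 329 in VCaP–ENZ48 (23.0 CPM, 20.6 to 25.6) and no row in LNCaP–ENZ168, where it was counted as 0. Its fold between the VCaP libraries was 2.95 (2.43 to 3.60, log2 ratio 1.45). Against the count of 0 in LNCaP–ENZ168 no fold can be given, and the lower end of the 95% interval of the fold of VCaP–ENZ48 over LNCaP–ENZ168 was 39.2. TFF3, a product of goblet cells, had 776 UMIs in VCaP parental (39.8 CPM, 37.0 to 42.7), 312 in VCaP–ENZ48 (21.8 CPM, 19.5 to 24.4) and 83 in LNCaP–ENZ168 (13.1 CPM, 10.5 to 16.3). TFF3 was thus highest in the untreated library, with a fold of 0.549 (0.480 to 0.626, log2 ratio -0.84) in VCaP–ENZ48 over VCaP parental. TFF2, which lies between them, had no row and was counted as 0.

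TSPAN8, a tetraspanin of the cell surface and of extracellular vesicles, had 5548 UMIs in VCaP parental (284 CPM, 277 to 292), 9513 in VCaP–ENZ48 (665 CPM, 652 to 679) and 4 in LNCaP–ENZ168 (0.634 CPM, 0.173 to 1.62). It had the most UMIs of the 7 genes before treatment, and it was close to the limit of detection in the LNCaP library. The fold between the VCaP libraries was 2.34 (2.26 to 2.42, log2 ratio 1.22), and that of VCaP–ENZ48 over LNCaP–ENZ168 was 1049.9 (409.9 to 3854).

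A1CF, the RNA-binding cofactor of the APOBEC1 deaminase in apolipoprotein B mRNA editing, had 104 UMIs in VCaP parental (5.33 CPM, 4.35 to 6.46), 422 in VCaP–ENZ48 (29.5 CPM, 26.8 to 32.5) and 11 in LNCaP–ENZ168 (1.74 CPM, 0.870 to 3.12). The 3 intervals were separate and the fold between the VCaP libraries was 5.54 (4.46 to 6.93, log2 ratio 2.27). HNF4G, a transcription factor of the nuclear receptor family in intestinal epithelium, had 131 UMIs in VCaP parental (6.71 CPM, 5.61 to 7.97), 101 in VCaP–ENZ48 (7.06 CPM, 5.75 to 8.58) and 4 in LNCaP–ENZ168 (0.634 CPM, 0.173 to 1.62). Its 2 VCaP values lay within each other's intervals, with a fold of 1.05 (0.803 to 1.37), and LNCaP–ENZ168 lay below both. HNF4G did not reach the mean of 10 CPM. Its relative HNF4A had 0 UMIs in both VCaP libraries and 1 in LNCaP–ENZ168.

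**Figure D1:**
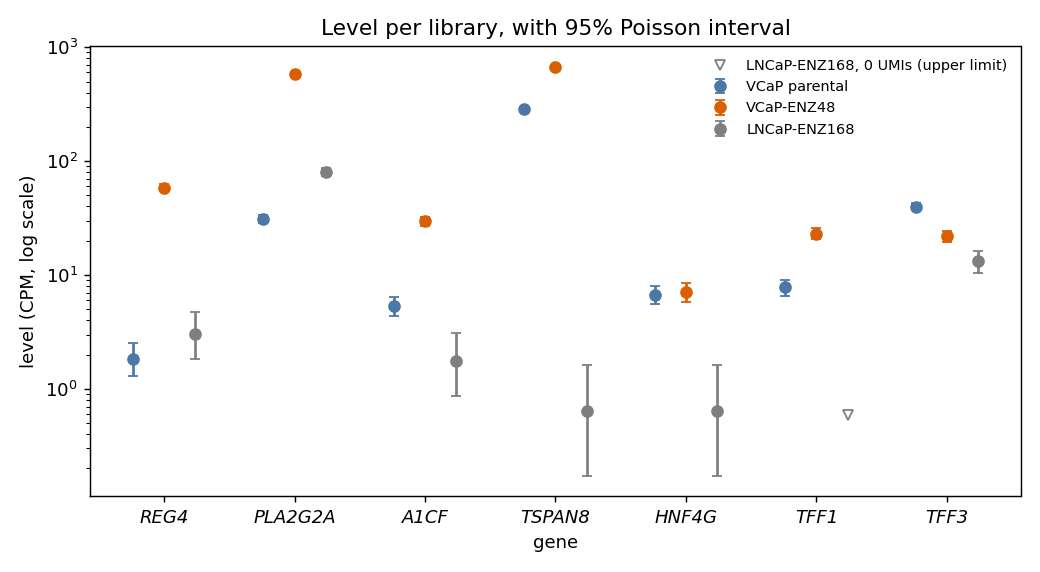
Level of each of the 7 genes (CPM, log scale) in VCaP parental, VCaP–ENZ48 and LNCaP–ENZ168, with 95% Poisson intervals as bars, where the open triangle is the upper limit of a count of 0. VCaP–ENZ48 is highest for REG4, PLA2G2A, A1CF, TSPAN8 and TFF1, level with VCaP parental for HNF4G and below it for TFF3 (21.8 against 39.8 CPM).

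The ranks of the other members among the 7729 ratios were 28 for A1CF, 303 for TFF1, 470 for TSPAN8 and 6981 for TFF3. The 5 genes at least 2-fold higher were 5 of the 6 members that reached 10 CPM, and nothing is read from that share, because the choice of members used these ratios. REG4, A1CF and TFF1, at 1.84, 5.33 and 7.79 CPM in VCaP parental, also reached this minimum only through VCaP–ENZ48, where they were high. Nothing is read from the ranks either. Under 13 other settings the log2 ratio stayed positive for REG4 (3.22 to 6.08), PLA2G2A (3.72 to 4.67), A1CF (1.74 to 2.45), TSPAN8 (0.87 to 1.35) and TFF1 (1.10 to 1.60), and negative for TFF3 (-1.12 to -0.57). HNF4G ranged from -0.19 with TMM factors to 0.23 in cells called G1, so its sign depended on the scaling. TSPAN8 fell under 2-fold with TMM factors (log2 ratio 0.93), which moved the median of all genes by -0.28 (a total without mitochondrial and ribosomal protein genes moved it by 0.12), and with barcodes that ended in a base (0.91) or in cells called G1 (0.87). TFF3 passed 2-fold lower with TMM factors (-1.12).

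**Figure D2:**
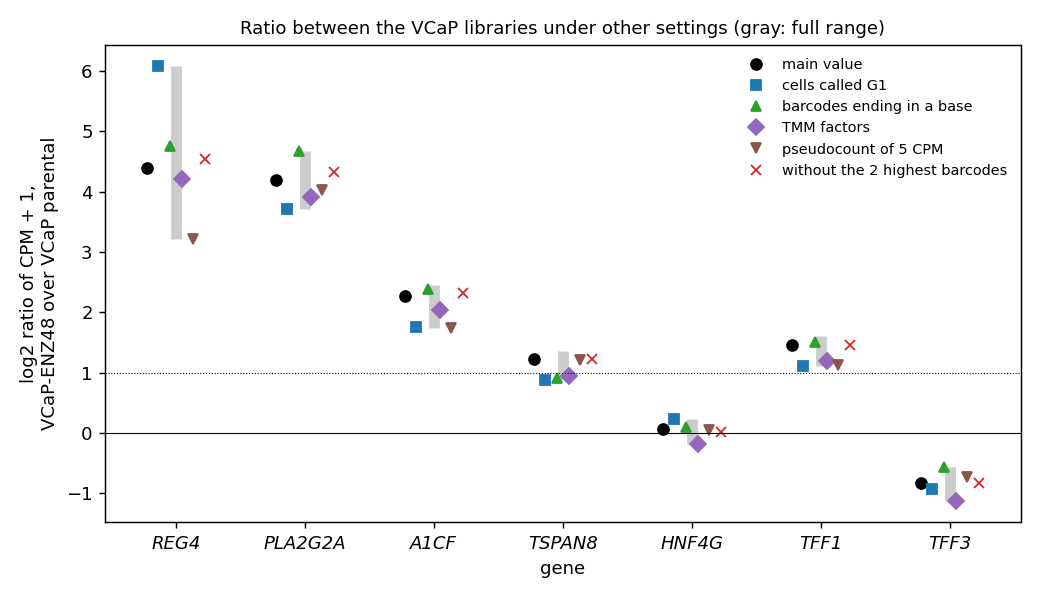
Log2 ratio of CPM + 1 between the VCaP libraries for each gene, with the reported value and 5 other settings as symbols and the full range over 13 settings as a gray bar. The dotted line marks a 2-fold higher level; REG4 has the widest range (3.22 to 6.08), and only HNF4G has symbols on both sides of 0.

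The members differed in how their UMIs were spread over cells. REG4 in VCaP–ENZ48 was concentrated: 847 of 947 cells had no UMI, 60 had 1, 31 had 2 to 9 and 9 had 10 or more. These 9 cells held 78.2% of the UMIs, and the highest had 273 and 199 of 838. In VCaP parental 32 of 36 UMIs came from 1 cell and the other 4 from 4 cells, and in LNCaP–ENZ168 17 of 19 came from 1 cell and the other 2 from 2 cells. Each library thus had at least 1 cell of 10 or more REG4 UMIs, and VCaP–ENZ48 had 9. Without the highest barcode of each library, chosen after the data were seen, REG4 was at 0.205 CPM in VCaP parental (4 UMIs), 39.6 CPM in VCaP–ENZ48 (565 UMIs) and 0.318 CPM in LNCaP–ENZ168 (2 UMIs). Without the 2 highest, it was at 0.154 CPM (3 UMIs), 25.7 CPM (366 UMIs) and 0.159 CPM (1 UMI), and the fold between the VCaP libraries was 167 (56.7 to 813.5). The fold of REG4 therefore moved from 31.8 to 193 (74.9 to 710.3) or 167 with 1 or 2 barcodes left out, in the direction of a larger difference, because the lone parental cell held most of the parental UMIs.

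The 9 cells of VCaP–ENZ48 with 10 or more REG4 UMIs, a limit set after the values were seen, were all called G1, as were 787 of 917 cells of that library. They had 5829 to 50728 UMIs in total, against a library median of 11224, and 4 of the 9 were above 3 times that median. They held 28 to 236 UMIs of the VCaP line markers and 0 or 1 of the LNCaP line markers. All 9 also had PLA2G2A UMIs, from 8 to 192 per cell. Their summed PLA2G2A level was 1838 CPM (1680.1 to 2006), against 555 CPM (543 to 568) in the other 938 cells. TSPAN8 was at 616 CPM (527 to 717) in the 9 and 666 CPM (653 to 680) in the others, A1CF at 25.7 CPM (10.3 to 52.9) and 29.6 CPM (26.8 to 32.6), and TFF1 at 36.7 CPM (17.6 to 67.5) and 22.7 CPM (20.3 to 25.4). Of these genes PLA2G2A alone had separate intervals. Among its 501 UMIs in the 9 cells, 192 and 93 came from 1 cell each, a spread that the intervals do not cover. Genes outside the members were not compared in this way, so how common separate intervals are was not tested. The lone parental cell with 32 REG4 UMIs had 5 PLA2G2A UMIs, was called S phase and carried 88 UMIs of VCaP line markers. The lone LNCaP–ENZ168 cell with 17 had 0 PLA2G2A UMIs, was called G2M and carried 71 UMIs of LNCaP line markers and 0 of VCaP line markers.

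PLA2G2A was spread more widely. The highest cell of VCaP–ENZ48 held 274 of 8288 UMIs, and 51 cells (5.39%) held 50% of them. In VCaP parental 21 cells (2.11%) held 50% of 601 UMIs, with 44, 43, 42 and 30 UMIs in the 4 highest. In LNCaP–ENZ168 1 cell held 108 of 506 UMIs and 19 cells (2.01%) held 50%. Leaving out the highest barcode of each library put PLA2G2A at 562 CPM in VCaP–ENZ48 against 28.6 CPM in VCaP parental, and LNCaP–ENZ168 at 63.2 CPM. For TSPAN8, 186 cells (19.6%) of VCaP–ENZ48 held 50% of the 9513 UMIs, with at most 69 in any cell. The number of cells that hold 50% grows with the total, so genes of unlike totals are not ranked by it. A1CF, HNF4G, TFF1 and TFF3 never passed 10 UMIs in a cell of any library.

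**Figure D3:**
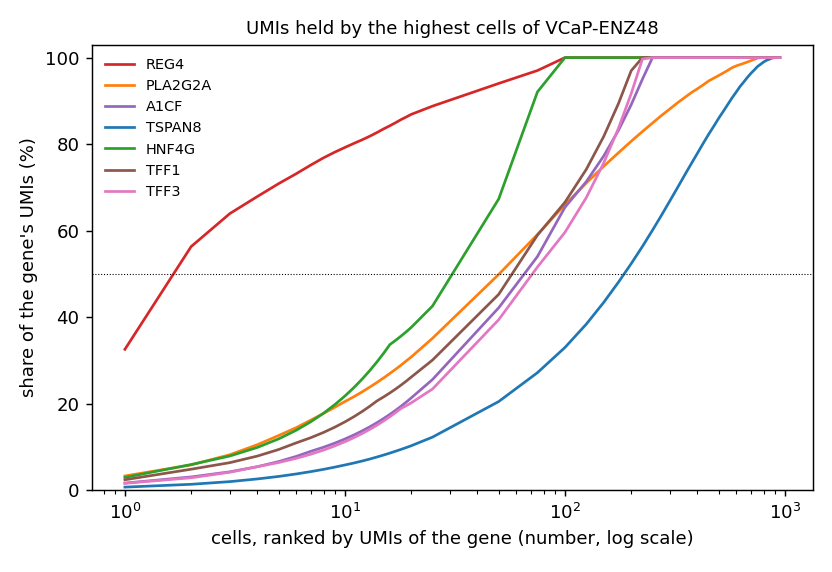
Share of the UMIs of each gene (%) held by the highest cells of VCaP–ENZ48, against the number of cells ranked by UMIs of that gene (log scale), with the dotted line at 50%. The REG4 curve passes 50% at 2 cells, PLA2G2A at 51 cells and TSPAN8 at 186 cells.

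To compare shares of cells at equal depth, cells were thinned to 2000 UMIs, which kept 997, 917 and 943 cells. PLA2G2A had a UMI in 5.12% of VCaP parental cells (3.83 to 6.67), 44.6% of VCaP–ENZ48 cells (41.4 to 47.9) and 9.23% of LNCaP–ENZ168 cells (7.46 to 11.3). TSPAN8 had one in 41.3% (38.2 to 44.5), 68.7% (65.6 to 71.7) and 0.106% (0.0027 to 0.589), in the same order. Both genes were thus found in more VCaP–ENZ48 cells as well as at a higher mean, and TSPAN8 was a gene of many VCaP cells before treatment.

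The 5 remaining genes were each found in under 10% of thinned cells. REG4 had a UMI in 0.100%, 3.38% and 0.212% of cells, A1CF in 0.903%, 5.56% and 0.212%, and TFF1 in 1.40%, 4.58% and 0 of 943 cells. HNF4G had one in 1.00%, 0.981% and 0.106% of cells, and TFF3 in 7.42%, 3.82% and 1.91%. The order of the libraries followed that of the CPM for each of these genes apart from HNF4G, but some shares had overlapping intervals. These were the shares of VCaP parental and LNCaP–ENZ168 for REG4 (1 and 2 cells) and A1CF. They were also those of VCaP–ENZ48 and LNCaP–ENZ168 for TFF3, and all those of HNF4G. Between shares with overlapping intervals no order is read. Unthinned shares were higher throughout, for example 10.6% for REG4, 80.1% for PLA2G2A and 93.3% for TSPAN8 in VCaP–ENZ48, against 0.502%, 23.2% and 94.98% in the deeper VCaP parental library. The unthinned share of TSPAN8 went against its CPM, and no order is read from it. These libraries hold no cell type that is known to lack the genes, so the part of free RNA in the low shares was not tested.

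Among cells with a UMI, the thinned VCaP–ENZ48 cells averaged 2.75 UMIs of PLA2G2A and 2.13 of TSPAN8, against 1.16 and 1.42 in VCaP parental. The variance over the mean of the thinned counts in VCaP–ENZ48 was 5.96 for PLA2G2A, 4.64 for REG4 and 1.80 for TSPAN8. PLA2G2A and TSPAN8 had similar thinned means there, at 1.23 and 1.46 UMIs per cell. For A1CF, HNF4G, TFF1 and TFF3, at means of 0.0098 to 0.0589 UMIs per cell, this ratio is near 1 for almost any spread and is not read.

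At least 1 of the 7 genes was found in 49.3% of thinned VCaP parental cells (46.2 to 52.5), 85.7% of VCaP–ENZ48 cells (83.3 to 87.9) and 11.5% of LNCaP–ENZ168 cells (9.49 to 13.7). At least 2 were found in 7.22% (5.69 to 9.01), 38.4% (35.2 to 41.6) and 0.318% (0.0657 to 0.927), and at least 3 in 0.702%, 6.98% and 0 of 943 cells. The increase in cells with several members was mostly that of PLA2G2A with TSPAN8: 272 of the 352 VCaP–ENZ48 cells with at least 2 members had both. No thinned cell had 5 or more of the genes.

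**Figure D4:**
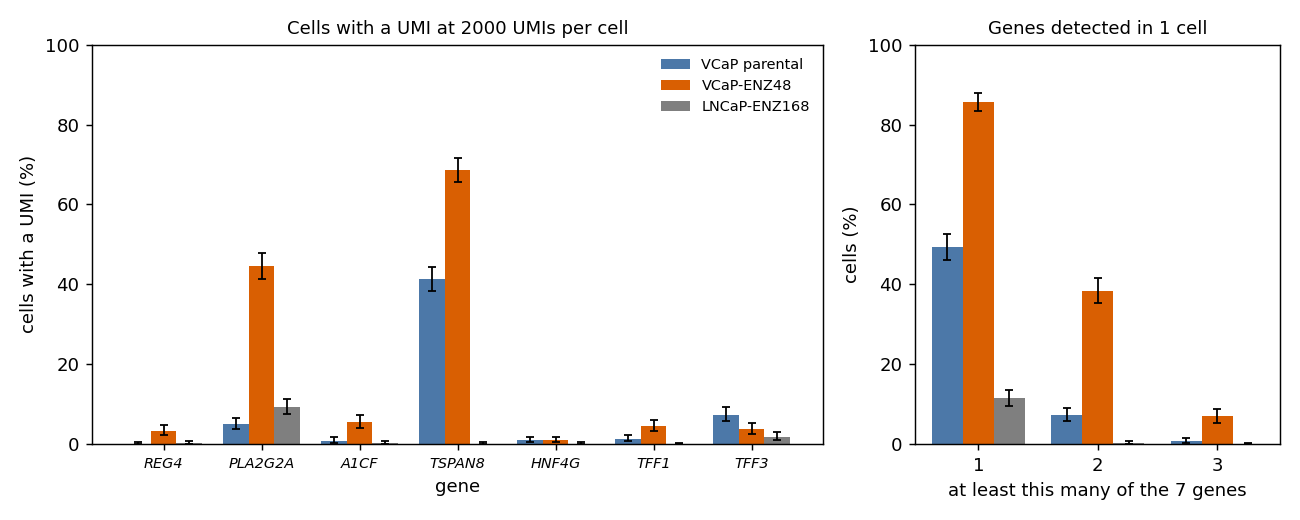
Left, share of cells (%) with a UMI of each gene after thinning to 2000 UMIs per cell; right, share of cells with at least 1, 2 or 3 of the 7 genes. Bars are the 3 libraries with exact 95% binomial intervals; VCaP–ENZ48 reaches 44.6% for PLA2G2A and 68.7% for TSPAN8, and 38.4% of its cells have at least 2 genes.

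Detection of the members was then compared within VCaP–ENZ48. PLA2G2A was found in 25 of 31 cells with a REG4 UMI (80.6%, 62.5 to 92.5) and in 384 of 886 cells without (43.3%, 40.0 to 46.7). This was the only pair of members with separate intervals. Pairs of other genes were not compared in this way, so how common such a separation is was not tested. The separation was lost in cells with at most 15% mitochondrial UMIs, where the shares were 62.5% (43.7 to 78.9) and 43.6% (40.2 to 47.2). It was also lost in cells called G1, at 60% (40.6 to 77.3) and 46.2% (42.6 to 49.9). Under both settings the cells were thinned anew, so a change of cells and a change of draw cannot be told apart. TSPAN8, in contrast, was found in 66.5% of cells with PLA2G2A (61.7 to 71.1) and 70.5% of cells without (66.3 to 74.4), with overlapping intervals. A1CF was found in 6.60% and 4.72% of these cells. The trefoil genes were not found together more often either, with TFF3 in 1 of 42 cells with TFF1 (2.38%) and in 3.89% of 875 cells without. Over the 917 cells the Pearson r of log-transformed UMIs was 0.21 for REG4 with PLA2G2A and had a median of 0.02 over the 21 pairs of members. These cells share a library, and at such sparse counts the low values of r are not read further.

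For PLA2G2A and TSPAN8, the members found in at least 10% of thinned VCaP–ENZ48 cells, the most similar genes were sought among 2513 genes over 917 cells. PLA2G2A was most like ATP6V0B (r = 0.15), TSPAN1 (0.14) and FBLN2 (0.13). TSPAN8 was most like DHRS7 (r = 0.26), ACPP (0.23) and MT-CO1 (0.23). In VCaP parental the same pairs had r of -0.02 to 0.03 and 0.02 to 0.06. These are weak correlations within 1 library, and the lists kept between 0 and 2 of their 3 genes under another depth or seed of thinning.

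Phase calls differed between the VCaP libraries, with 281 of 997 thinned cells called G1 in VCaP parental and 787 of 917 in VCaP–ENZ48, so the levels were also compared within phases. PLA2G2A was 13.4-fold higher in VCaP–ENZ48 among G1 cells (11.7 to 15.4), 17.9-fold among S cells (15.4 to 20.9) and 23.2-fold among G2M cells (18.8 to 28.6). Within VCaP parental it was higher in G1 (44.4 CPM) than in S (26.6 CPM) or G2M cells (25.9 CPM). A1CF was 3.69-fold (2.65 to 5.24), 8.58-fold (5.17 to 14.5) and 3.76-fold (1.42 to 8.49) higher in the 3 phases. TSPAN8 was 1.83-fold (1.74 to 1.92), 2.28-fold (2.11 to 2.46) and 1.63-fold (1.35 to 1.95) higher. Its parental level was also highest in G1, at 375 CPM against 257 and 251 CPM.

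The other members had fewer UMIs for this division. TFF1 was 2.26-fold (1.67 to 3.13) higher in G1 and 4.14-fold (2.75 to 6.21) in S cells, with 3 UMIs in the 23 G2M cells of VCaP–ENZ48. TFF3 was lower in every phase, with folds of 0.514 (0.428 to 0.617), 0.410 (0.272 to 0.596) and 0.370 (0.100 to 0.961). The HNF4G intervals included 1 in all 3 phases. REG4 had 0 UMIs in the 281 G1 cells of VCaP parental and 812 in those of VCaP–ENZ48 (66.5 CPM), and its S phase fold of 2.28 (1.20 to 4.198) rested on the parental cell with 32 UMIs.

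The share of cell barcodes whose last letter was N was 86.2% in VCaP parental, 86.6% in VCaP–ENZ48 and 21.7% in LNCaP–ENZ168. What this N stands for was not resolved, so values are also given without these barcodes. Within barcodes ending in a base, PLA2G2A was 26.4-fold (20.9 to 33.9), A1CF 6.07-fold (3.54 to 11.1), TFF1 3.07-fold (1.92 to 5.05) and TSPAN8 1.88-fold (1.74 to 2.04) higher in VCaP–ENZ48, and TFF3 had a fold of 0.667 (0.495 to 0.895). REG4 had 0 UMIs in the 138 such parental cells and 77 in the 127 such cells of VCaP–ENZ48 (26.1 CPM). Across quartiles of cells by depth, PLA2G2A lay between 548 and 664 CPM in VCaP–ENZ48 and between 23.4 and 37.2 CPM in VCaP parental. TSPAN8 lay between 598 and 791 CPM and between 272 and 304 CPM. Across quartiles by mitochondrial share, PLA2G2A was highest in VCaP–ENZ48 cells of the highest quartile (763 CPM against 519 to 580 CPM), and in LNCaP–ENZ168 in the lowest (144 CPM against 40.4 to 65.6 CPM), where the cell with 108 UMIs also lay.

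Relatives of the members were examined next. REG1A, REG1B, REG3A and REG3G, the other REG lectins, had no row in any library and were counted as 0. Of the secreted phospholipases only PLA2G12A reached 10 CPM, at 38.7 CPM in VCaP parental and 36.2 CPM in VCaP–ENZ48 (log2 ratio -0.10). PLA2G5 and PLA2G2F, neighbours of PLA2G2A, had 7 and 5 UMIs in VCaP–ENZ48. Of 17 tetraspanins at 10 CPM or more, 4 were at least 2-fold higher and 0 at least 2-fold lower, against 8.19% and 6.77% of all genes, with a median log2 ratio of 0.45 against -0.07. The 4 were TSPAN7 (1.91), TSPAN1 (1.57), TSPAN12 (1.42) and TSPAN9 (1.23), of which TSPAN12, at 7.79 CPM in VCaP parental, reached the minimum only through VCaP–ENZ48. CD9, CD63, CD81, CD82 and CD151 stayed under 2-fold. The A1CF partner APOBEC1, the deaminase itself, had no row and was counted as 0. Of its RNA-binding relatives, RBM47 was at 146 and 201 CPM (log2 ratio 0.46) and SYNCRIP at 310 and 192 CPM (-0.69).

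Genes next to the members, 3 on each side where annotated, gave 14 at 10 CPM or more, of which 3 were at least 2-fold higher and 0 at least 2-fold lower (median log2 ratio 0.44), against 8.19% and 6.77% of all genes. CRISPLD1 and PI15, secreted proteins of the CAP family, are encoded 373356 and 552885 bp from HNF4G. They went from 61.0 to 313 CPM (2.34) and from 3.23 to 19.9 CPM (2.31), while HNF4G itself was at 6.71 and 7.06 CPM. RSPH1, near TFF1, went from 6.61 to 14.8 CPM (1.05). PI15 and RSPH1 reached the minimum only through VCaP–ENZ48, where they were high. ABCG1, a cholesterol transporter encoded next to TFF3 and below 10 CPM on average, went from 2.77 to 11.1 CPM. Next to REG4, PHGDH (0.16), NOTCH2 (-0.61) and SEC22B (0.61) were under 2-fold, as were SGMS1 (0.50) beside A1CF and ZFC3H1 (0.41) and THAP2 (-0.39) beside TSPAN8. The others beside HNF4G and TFF3 (GDAP1, ZFHX4, PEX2, PKIA and ZBTB21) had log2 ratios of 0.11 to 0.73. Neighbours were the nearest annotated genes at any distance, as far as 2949506 bp for PKIA.

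A wider list of 74 other gastrointestinal genes was read for comparison. Of these 50 had a row and only 6 reached 10 CPM, of which 3 were at least 2-fold higher and 0 at least 2-fold lower, against 8.19% and 6.77% of all genes, with a median log2 ratio of 0.83. BCAS1, of goblet cells and oligodendrocytes, went from 78 to 256 UMIs (3.997 to 17.9 CPM, 1.92) and reached the minimum only through VCaP–ENZ48, while the progenitor factor SOX9 went from 23.6 to 65.3 CPM (1.43) and the epithelial factor ELF3 from 27.7 to 60.1 CPM (1.09). SPDEF (0.58), ONECUT2 (0.33) and AGR2 (0.25), also known from prostate cells, were under 2-fold. With 6 genes the median describes those genes only.

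Most of the wider list was at a low level. With the minimum lowered to 1 CPM, 25 of its genes were included. By the ratio of CPM + 1, 4 were at least 2-fold higher and 3 at least 2-fold lower, against 12.8% and 4.63% of 15105 genes. Of these 25 genes 20 had a log2 ratio above 0, with a median of 0.28, against 60.1% of all genes at this minimum and a median of 0.17. The 3 lower genes were the secretory lineage factor ATOH1 (101 to 12 UMIs), the mucin glycosyltransferase ST6GALNAC1 (144 to 12 UMIs) and the brush border peptidase DPP4 (210 to 63 UMIs). LGALS4, a galectin of enterocytes, went from 9 to 30 UMIs and was the gene added among the higher ones. The intestinal factor CDX2 had 40 UMIs in VCaP parental (2.05 CPM), 64 in VCaP–ENZ48 (4.48 CPM) and 0 in LNCaP–ENZ168. SI, listed as an absorptive gene, had 170 (8.71 CPM), 60 (4.20 CPM) and 217 UMIs (34.4 CPM) in the same order. By CPM alone, CDX2, GUCA2A, GATA6, ISX and APOA1 were also at least 2-fold higher in VCaP–ENZ48, and SI at least 2-fold lower. Their ratios of CPM + 1 stayed under 2-fold, so they are not in the counts above. Of the defining intestinal markers VIL1 had 8, 2 and 9 UMIs, CDH17 5, 9 and 1 and KRT20 0, 0 and 3.

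**Figure D5:**
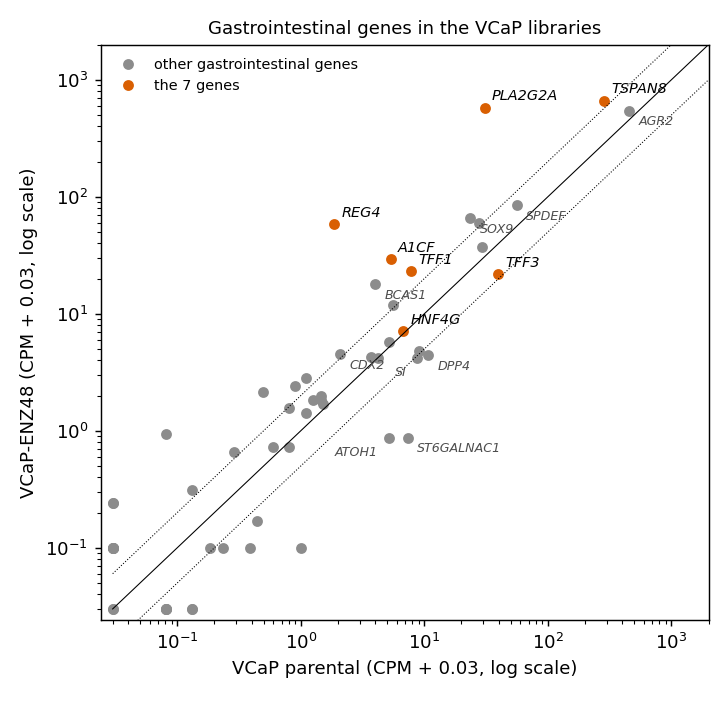
Level in VCaP–ENZ48 against VCaP parental (CPM + 0.03, log scales) for the 7 genes and for the 50 other gastrointestinal genes with a row, with the line of equal level and dotted lines at 2-fold. REG4 and PLA2G2A lie farthest above the line, and ATOH1 and ST6GALNAC1 (101 to 12 and 144 to 12 UMIs) below it.

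In LNCaP–ENZ168, 3 of the 7 genes (TSPAN8, HNF4G and TFF1) were under 1 CPM and 4 were at or above it. REG4, with 17 of its 19 UMIs in 1 cell, fell under 1 CPM in cells called G1 (0.428 CPM). It also did so with equal weight for every cell (0.915 CPM) and without barcodes above 3 times the median depth (0.368 CPM). The share of all genes under 1 CPM in LNCaP–ENZ168 was not counted, so nothing is read from the count. PLA2G2A was the highest of the 7 by UMIs there, and 185 of 944 cells (19.6%) had at least 1. Only 3 thinned LNCaP–ENZ168 cells had UMIs of 2 members, in each case PLA2G2A with TFF3. VCaP–ENZ48 over LNCaP–ENZ168 had folds of 19.5 (12.4 to 32.5) for REG4, 7.23 (6.61 to 7.93) for PLA2G2A, 16.9 (9.37 to 34.2) for A1CF, 11.1 (4.22 to 41.7) for HNF4G and 1.66 (1.30 to 2.14) for TFF3. No member was higher in LNCaP–ENZ168 than in VCaP–ENZ48.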

How the data were processed

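Single-cell mRNA was captured by Drop-seq, in which each cell shares a droplet with a barcoded bead, in 1 library each of VCaP parental, VCaP–ENZ48 and LNCaP–ENZ168. The authors aligned reads to GRCh38 with STAR and made gene by barcode tables with the Drop-seq tools, expecting 1000 cells per library, and the deposited values are raw UMI counts. The files held 1000 barcodes each.

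A cell needed 300 genes, 500 UMIs and a mitochondrial share of no more than 25% to be kept. No doublet caller was run. UMIs were summed per library and scaled to CPM. A gene without a row in a table was counted as 0. Ratios are log2 of CPM + 1, and folds are of CPM alone. Sums carry exact Poisson, folds exact conditional and shares Clopper-Pearson 95% intervals. No test was run, since each group had 1 library and cells are not replicates. Median UMIs per cell were 17817, 11224 and 5389 for VCaP parental, VCaP–ENZ48 and LNCaP–ENZ168. For shares, cells were thinned without replacement to 2000 UMIs, which left out 0, 30 and 1 cells in that order. Phases were called on the thinned cells by CellCycleScoring of Seurat. Genes at a mean of at least 10 CPM were compared by a 2-fold limit on the ratio of CPM + 1. Positions are from Gencode 44. Each promoter was the RefSeq entry nearest to the MANE Select start, otherwise the first listed.

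The members, gene lists and tests were chosen with earlier results of these data known. Named genes were the members, the highest and lowest of the other gastrointestinal genes, the intestinal markers, neighbours and relatives of at least 10 CPM and the 3 genes most like PLA2G2A and TSPAN8; others, with lower counts, were named after their values were seen. Alternatives covered cell filters, barcode ending, phase, cell weighting, scaling (TMM of edgeR, median-of-ratios, total without mitochondrial and ribosomal protein genes), pseudocount, fold, minimum, thinning and, added after seeing the data, the highest barcodes left out. Some chosen items are not reported here. Steps were tested on simulated data. Python 3.11.15 (numpy 2.4.6, pandas 2.3.3, scipy 1.17.1, matplotlib 3.10.9) and R 4.3.3 (Seurat 5.3.0, edgeR 4.0.16, Matrix 1.6.5) were used.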

Additional observations from a re-analysis of the deposited data

How the results depend on the processing

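No paired analysis was possible because there was only 1 library in a group, and so no replicate could be left out. No result reversed its direction among the ratios and counts compared, apart from the sign of HNF4G, which was under 2-fold throughout. The count of members at least 2-fold higher (5) became 3 with a 4-fold limit and stayed within 1.5 times under the other settings. The median log2 ratio of the members (1.45) was 1.10 in cells called G1, 1.19 with TMM factors and 1.21 with a pseudocount of 5 CPM. Of the other gastrointestinal genes, the count at least 2-fold higher (3) was 1 in barcodes ending in a base, and 0 with a 4-fold limit or a minimum of 50 CPM, where fewer genes could pass, and 2 with TMM factors, in G1 cells or with a pseudocount of 5 CPM. The count at least 2-fold lower (0) was 1 with the total without mitochondrial and ribosomal protein genes and 3 with a minimum of 1 CPM, which includes more genes. The share of VCaP–ENZ48 cells with 2 or more members (38.4%) was 41.8% without a cell filter, 44% in barcodes ending in a base and 41.9% in G1 cells, where that of VCaP parental (7.22%) was 10.7%. Thinning to 1000 UMIs gave 2.01%, 18.4% and 0 for VCaP parental, VCaP–ENZ48 and LNCaP–ENZ168, thinning to 4000 gave 17.8% and 65.0% for the VCaP libraries, and unthinned cells gave 66.0%, 85.3% and 2.54%; these shares follow the depth by construction. The cause of the other shifts was not tested. REG4 in VCaP parental and LNCaP–ENZ168 rests on 1 cell each, and the counts of HNF4G, A1CF and TSPAN8 in LNCaP–ENZ168 are too low to order them.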
